A study of Mus musculus with 6 samples.

Results

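NF-kB subunits and their inhibitors were followed as 10 genes in microglia, the macrophages that reside in brain tissue. The genes were fixed by name as Rela, Relb, Rel, Nfkb1, Nfkb2, Nfkbia, Nfkbib, Nfkbie, Nfkbiz and Tnfaip3. Each name matched 1 row, giving 10 of the 55487 genes in the count table. All 10 passed the expression filter and are among the 15787 genes tested.

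Cortex of female mice at 20 months of age was the source, and living microglia were collected by flow cytometry through a gate on CD11b-positive, CD45-intermediate cells. All mice carried floxed Atg7 alleles (Atg7-fl/fl), and per the design text the controls were littermates. The 3 control mice carried no Cre, and the 3 knockout mice also carried Cx3cr1-CreERT2, an inducible Cre recombinase driven by Cx3cr1, a gene that other brain and blood macrophages use too. Induction of the Cre is not described in the labels, and loss of Atg7 cannot be told apart from presence of the Cre allele. Each library is 1 mouse, and the comparison asks how RNA levels differ between microglia of the knockout and the control mice.

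NF-kB is a family of dimeric transcription factors built from RelA, RelB, c-Rel and the processed products of the Nfkb1 and Nfkb2 precursors. In resting cells IkB proteins hold the dimers in the cytoplasm. Signals from Toll-like, interleukin-1 and TNF receptors activate IkB kinases, the IkB proteins are degraded and the dimers enter the nucleus. Several inhibitors are themselves NF-kB target genes and close a negative feedback loop, and in microglia the pathway drives cytokine and chemokine genes.

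Library totals ran from 1254380 to 39389527 reads. The 2 shallow libraries were control 3, with 1254380 reads, and knockout 2, with 3789208 reads. Levels are read counts scaled by the total and by TMM (CPM), in which 1 read is worth 0.786 CPM in control 3 and 0.0263 CPM in control 1. Values given in threes follow the order of libraries 1, 2 and 3 of a group. The labels were checked with Atg7, for which the controls read 65.7, 66.4 and 56.6 CPM and the knockouts 25.0, 26.5 and 23.7 CPM, a log2 difference of -1.33 (SE 0.19, edgeR adjusted p = 0.0147). All 12 microglial markers were measured, with a summed level of 70230 to 77140 CPM for controls and 57430 to 63550 CPM for knockouts. Of the 12, 11 were below 0 on the log2 scale, and edgeR called 1, Cx3cr1, the gene that drives the Cre. For Cx3cr1 the controls read 11020, 9581 and 11260 CPM and the knockouts 4394, 4126 and 5611 CPM, without overlap, a log2 difference of -1.17 with an SE of 0.13 and an adjusted p of 0.00126 in edgeR. On average Cx3cr1 made up 10620 of the summed 73540 CPM in controls and 4710 of 60640 CPM in knockouts. The reads are bulk, so fewer cells of a type and less RNA per cell cannot be told apart. For Cx3cr1 an effect of the Cre allele itself cannot be told apart from these either.

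NF-kB dimers bind DNA at κB motifs, which inhibitor genes of the feedback loop carry near their start. The κB consensus was searched on both strands in the 250 bases before each gene start given by RefSeq on GRCm38.p6. Of the 10 genes, 7 were matched (all except Relb, Nfkb1 and Nfkbiz). The consensus was present for 5 of the 7 (Rel, Nfkb2, Nfkbia, Nfkbie and Tnfaip3) and not found for Rela and Nfkbib. Over all genes with an entry 8.23% had a match in a window of this length, counting a gene with several starts once if any window matched. A match describes the letters and is not evidence of binding in these cells. The windows of the classical inhibitors Nfkbia (chr12:55492648-55492897, minus strand) and Nfkbie (chr17:45555450-45555699, plus strand) are shown because both hold a match, at positions -29 and -106 from the gene start, and because their RNA levels are compared below. Sequences run 5′ to 3′ on the gene's strand, and capitals mark the κB match on either strand.
Nfkbia: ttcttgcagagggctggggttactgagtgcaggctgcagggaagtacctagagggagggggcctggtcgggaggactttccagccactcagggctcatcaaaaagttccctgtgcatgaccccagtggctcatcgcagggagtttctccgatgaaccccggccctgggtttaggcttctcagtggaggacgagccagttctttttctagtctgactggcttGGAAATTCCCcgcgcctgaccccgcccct
Nfkbie: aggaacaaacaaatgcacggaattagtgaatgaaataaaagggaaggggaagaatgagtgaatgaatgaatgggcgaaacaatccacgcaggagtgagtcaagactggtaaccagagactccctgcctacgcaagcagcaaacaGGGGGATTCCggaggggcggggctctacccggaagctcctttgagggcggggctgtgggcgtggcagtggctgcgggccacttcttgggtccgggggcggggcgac

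None of the 10 genes passed the adjusted test for a difference between knockouts and controls. EdgeR called 0 of 10 at an adjusted p under 0.05, the smallest adjusted p among them being 0.999, and DESeq2 and limma voom also called 0. These tests called few genes overall. EdgeR called 0.0443% of all genes tested, DESeq2 0.527% and limma voom 0.095%. At an unadjusted p under 0.05 edgeR had 1 of 10, Nfkbia on the higher side, where the background was 4.32% in either direction and 2.34% on the higher side. The groups did not overlap for 1 of 10, Nfkbib with the knockouts higher, against a background of 11.1% in either direction and 6.59% with the knockouts higher. Log2 fold changes of knockout over control ran from -0.44 to 0.47, with 6 of 10 above 0 and a median of 0.09, beside 52.5% above 0 and a median of 0.02 over all genes tested.

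**Figure D1:**
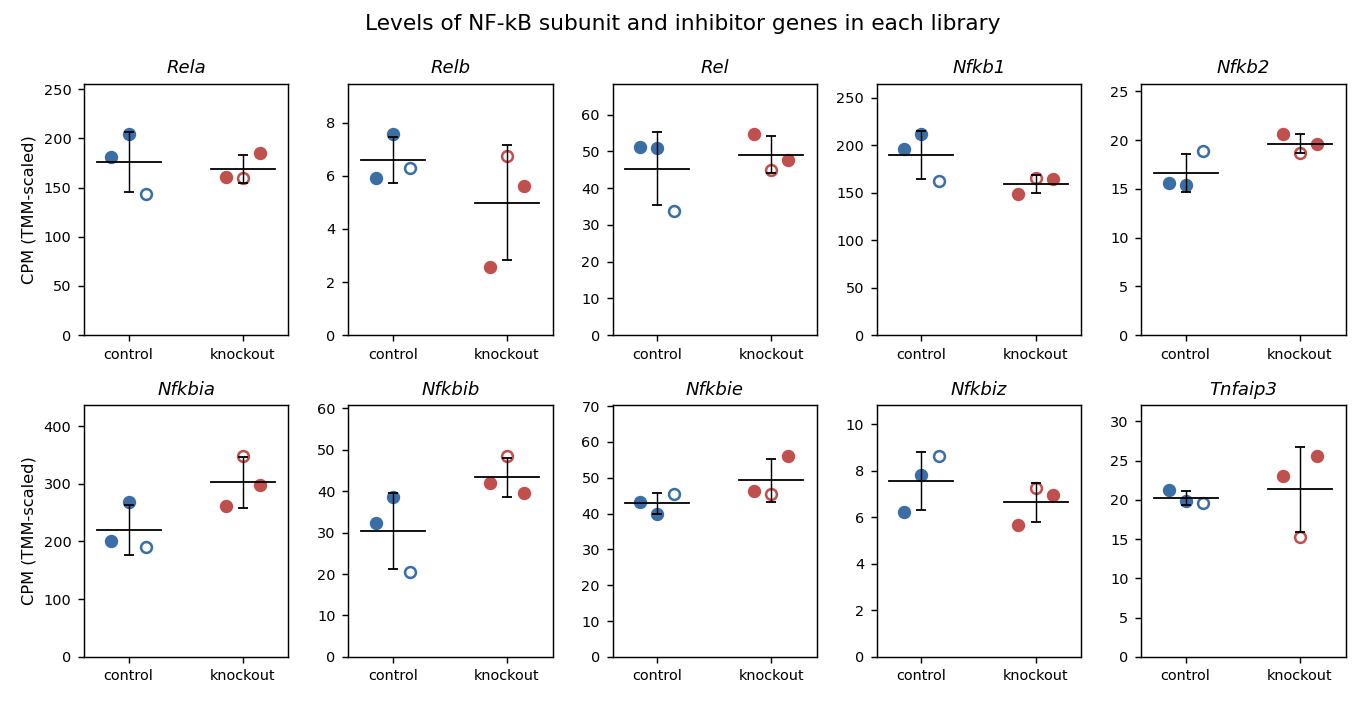
Level of each gene in each library, in TMM-scaled CPM on axes that start at 0. Blue points are the 3 control and red points the 3 knockout libraries, open points are the shallow libraries control 3 and knockout 2, and bars are the mean with the SD of 3 libraries. The groups overlap in every panel except that of Nfkbib.

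Among the subunits that carry a transactivation domain, Rela was the most abundant. Rela encodes RelA, the main activating subunit of the canonical pathway. The controls read 181, 204.5 and 144 CPM, the knockouts 161, 160.0 and 186 CPM. All 3 knockouts lay inside the range of the controls. Knockout over control gave a log2 fold change of -0.07 (SE 0.17), and its 95% interval corresponds to a knockout level between 0.747 and 1.22 times that of the controls.

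Rel encodes c-Rel, a subunit of lymphoid and myeloid cells that takes part in cytokine gene induction. The controls read 51.1, 50.8 and 33.8 CPM, the knockouts 54.8, 44.9 and 47.7 CPM. Control 3 was the low library, and the other 5 lay close together. The log2 fold change was 0.10 (SE 0.21, 95% interval -0.34 to 0.54), and it was -0.06 without control 3.

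Relb encodes RelB, the partner of the Nfkb2 product in the non-canonical pathway, and was scarce. The controls read 5.92, 7.58 and 6.29 CPM, the knockouts 2.58, 6.75 and 5.63 CPM. Knockout 1, a deep library with 87 Relb reads, was the lowest of the 6, and knockout 2 lay among the controls. Control 3 held only 8 Relb reads, and its exact 95% Poisson interval of 2.71 to 12.4 CPM spans the levels of 5 of the 6 libraries. Intervals from reads cover counting error only. The log2 fold change of -0.44 (SE 0.48) had a 95% interval of -1.47 to 0.59, the widest of the 10 genes. It was -0.12 without knockout 1, -0.71 without knockout 2 and -0.81 in limma voom.

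Nfkb1 and Nfkb2 encode precursors whose uncleaved forms hold dimers back like IkB proteins and whose processed forms are DNA-binding subunits without a transactivation domain. For Nfkb1 the controls read 196, 212 and 163 CPM and the knockouts 149, 166 and 164 CPM. The 2 deep controls were the highest libraries, and control 3 lay among the knockouts. This gave a log2 fold change of -0.26 (SE 0.16, 95% interval -0.59 to 0.08), with an unadjusted edgeR p of 0.122 and an adjusted p of 0.999. With both shallow libraries left out it was -0.39, with an unadjusted p of 0.0166 and an adjusted p of 0.486, and it was -0.17 without control 2.

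Nfkb2 is itself a target of NF-kB in stimulated cells. Here the controls read 15.6, 15.4 and 18.9 CPM, the knockouts 20.6, 18.7 and 19.6 CPM. Controls 1 and 2 were the lowest libraries, and control 3, with 24 reads, lay just above knockout 2. Its log2 fold change was 0.27 (SE 0.25, 95% interval -0.27 to 0.80). In GENCODE M21, 18.1% of the exonic bases of Nfkb2 also lie in exons of other genes on the opposite strand, and whether reads were counted by strand is not known, so its reads are uncertain to that extent.

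Nfkbia and Nfkbib, both classical inhibitors, had the highest fold changes of the 10 genes. Nfkbia encodes IkB alpha, the inhibitor that is degraded within the canonical response and quickly made again as an NF-kB target. The controls read 200.2, 269 and 190.2 CPM, the knockouts 261, 349 and 297.5 CPM. Control 2 lay just above knockout 1, and otherwise the knockouts were higher. The means were 220 CPM ± 42.9 (SD, n = 3) and 302 CPM ± 44.0. Nfkbia thus had a log2 fold change of 0.46 (SE 0.17, 95% interval 0.09 to 0.83), with an unadjusted edgeR p of 0.0181 and an adjusted p of 0.999. This is 1.37 times the control level, with an interval of 1.06 to 1.77 times that does not account for the number of genes tested. The value was 0.25 with an unadjusted p of 0.17 when both shallow libraries were left out.

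Nfkbib encodes IkB beta, a classical inhibitor that is re-made more slowly. The controls read 32.2, 38.6 and 20.4 CPM, the knockouts 41.9, 48.6 and 39.5 CPM. All knockouts were above all controls, but the exact Poisson intervals of knockout 3 (36.9 to 42.3 CPM) and control 2 (36.6 to 40.7 CPM) overlapped. Its log2 fold change was 0.47 (SE 0.24, 95% interval -0.03 to 0.97), with an unadjusted edgeR p of 0.0645 and an adjusted p of 0.999. Control 3, with 26 Nfkbib reads, was the lowest library, and without it the value was 0.27. Nfkbib shares 16.4% of its exonic bases with genes on the opposite strand in GENCODE M21.

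Nfkbie encodes IkB epsilon, a classical inhibitor induced late in the response. The controls read 43.2, 39.9 and 45.6 CPM, the knockouts 46.3, 45.5 and 56.2 CPM. Knockout 3 was the high library, and the rest lay within a narrow band. The log2 fold change of 0.21 (SE 0.19) had a 95% interval of -0.20 to 0.61, and the value was 0.079 without knockout 3.

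Nfkbiz and Tnfaip3 act beyond the cytoplasmic block. Nfkbiz encodes IkB zeta, a nuclear protein that is induced by Toll-like and interleukin-1 receptor signals and acts with NF-kB at secondary response genes. It was scarce, with controls at 6.21, 7.80 and 8.64 CPM and knockouts at 5.68, 7.27 and 6.97 CPM. The knockouts lay within or just below the range of the controls. For Nfkbiz the log2 fold change was -0.17 (SE 0.40, 95% interval -1.02 to 0.69), and control 3 rests on 11 reads. It ran from -0.30 without control 1 to -0.085 without knockout 1.

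Tnfaip3 encodes A20, a ubiquitin-editing enzyme that ends signalling upstream of the IkB kinases and is known to restrain microglial activation. The controls read 21.3, 19.8 and 19.6 CPM, the knockouts 23.0, 15.3 and 25.6 CPM. The controls were nearly equal, and the knockouts lay on both sides of them. Its log2 fold change was 0.08 (SE 0.25), and the 95% interval corresponds to 0.728 to 1.54 times the control level. Without knockout 3 the value was -0.09.

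**Figure D2:**
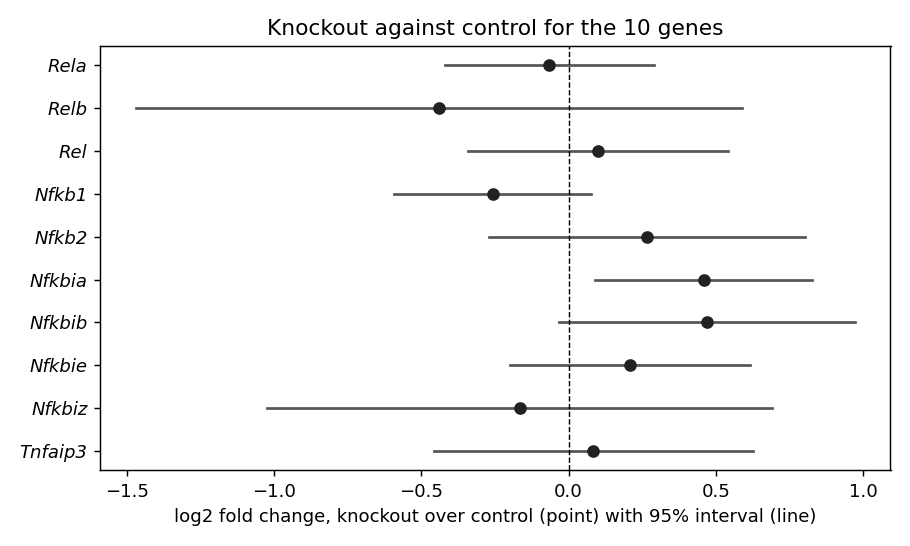
Log2 fold change of knockout over control for the 10 genes from edgeR (points) with 95% intervals (lines), where the dashed line marks no difference. The interval of Nfkbia, 0.09 to 0.83, lies above 0 before adjustment for the genes tested, and the other 9 intervals include 0.

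The order of the genes was compared per exonic length, as CPM per kilobase of the merged exons in GENCODE M21. Merged exons join those of all transcripts, 12061 bases for Nfkb1, 3072 for Rela and 1610 for Nfkbia. The order depends on these lengths, and which transcripts were made was not tested. Before division by length, Nfkb1 and Rela had means of 190 and 176 CPM in controls and 159 and 169 CPM in knockouts. Nfkbia was first in all 6 libraries, at 137 ± 26.6 (SD, n = 3) in the controls and 188 ± 27.3 in the knockouts, followed by Rela at 57.4 ± 9.96 and 55.0 ± 4.72. Nfkbib, Nfkbie and Nfkb1 came next and could not be ordered, since their ranges over the 6 libraries overlapped. In the controls the order of these means was Nfkb1, Nfkbie, Nfkbib, and in the knockouts it was Nfkbib, Nfkbie, Nfkb1. Rel was lower, with a mean of 6.32 over all 6 libraries. Nfkb2 and Tnfaip3 followed at 3.95 and 2.88, with overlapping ranges although Nfkb2 was the higher in 6 of 6 libraries. Relb and Nfkbiz were last, at 1.49 and 1.41, and overlapped.

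**Figure D3:**
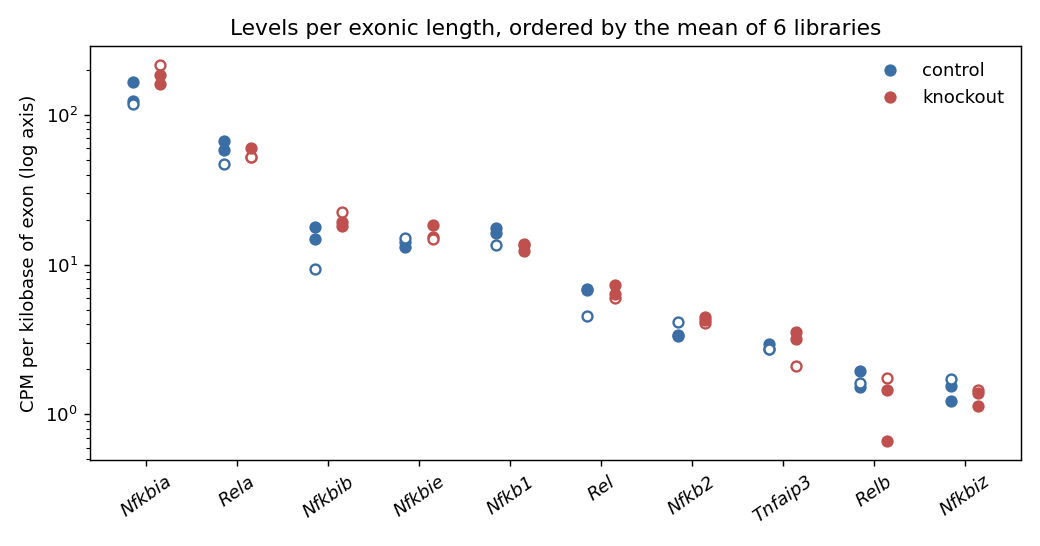
CPM per kilobase of exon on a log axis for each gene, ordered by the mean of 6 libraries, with controls in blue, knockouts in red and the shallow libraries as open points. On this measure, which depends on the merged exon lengths, Nfkbia and Rela stand above the others in every library, and Relb and Nfkbiz are at the bottom.

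Because IkB proteins act by binding subunits, reads of the genes were also set against each other within each library, which needs no scaling between libraries. This was chosen after the values had been seen and is given as a description. For Nfkbia reads over Nfkb1 reads the controls gave 1.02, 1.27 and 1.17, the knockouts 1.75, 2.11 and 1.81. The knockouts were all above the controls, and the gap between the groups was wider than the range within either. For Nfkbia over Rela the controls gave 1.11, 1.31 and 1.32 and the knockouts 1.62, 2.18 and 1.60, again without overlap. Nfkbia over Rel did overlap, with controls at 3.91, 5.29 and 5.63 and knockouts at 4.77, 7.76 and 6.24.

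Nfkbib reads were also higher relative to these subunits in every knockout library. Over Nfkb1 reads the controls gave 0.165, 0.182 and 0.126, the knockouts 0.282, 0.294 and 0.241. Over Rela reads the controls gave 0.178, 0.189 and 0.142, the knockouts 0.260, 0.304 and 0.213. In both ratios knockout 3 was the lowest knockout and control 3 the lowest control, and the groups did not overlap. Nfkbib over Rel, and Nfkbia and Nfkbib over Relb, also did not overlap, but Nfkbia and Nfkbib over Nfkb2 did. Every ratio between Nfkbie, the remaining classical inhibitor, and a subunit overlapped. Rel and Rela over Nfkb1 did not overlap, with the knockouts higher, so the lower Nfkb1 reads are part of the pattern. Of the 45 pairs among the 10 genes, 12 pairs (26.7%) did not overlap, and in 9 of these the gene that was relatively higher in the knockouts was Nfkbia or Nfkbib. Over all pairs of protein-coding genes with at least 5 CPM and reads in every library, 12.6% did not overlap. Pairs share genes and are not independent, so no test is given. With both shallow libraries left out the counts were 30 of 45 (66.7%) and 38.8% of all pairs.

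**Figure D4:**
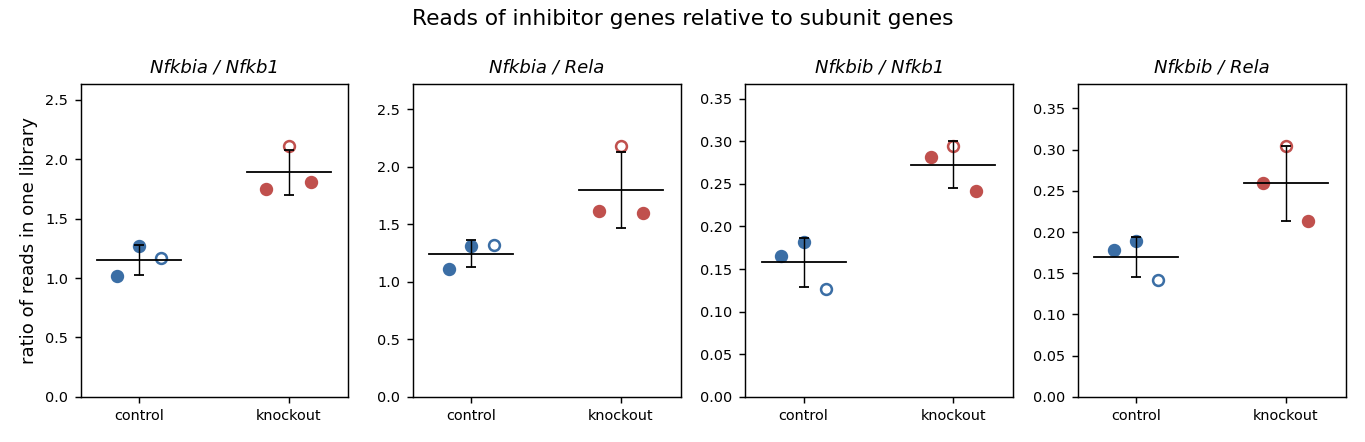
Reads of Nfkbia and Nfkbib divided by reads of Nfkb1 or Rela in the same library, with controls in blue, knockouts in red, shallow libraries open, and bars for the mean and SD of 3 libraries. In each of the 4 panels all knockout points lie above all control points, for example 1.75 to 2.11 against 1.02 to 1.27 for Nfkbia over Nfkb1. Other pairs of an inhibitor and a subunit, such as Nfkbia over Rel, overlapped and are not drawn.

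Markers of other cell types are given beside these values, and edgeR called 0 of the 46 tested. Before adjustment 10 had an edgeR p under 0.05, all on the higher side, beside 2.34% of all genes tested on that side. The calls of DESeq2 included 4 of the 10 border-associated macrophage markers, all higher in the knockouts, beside 0.527% of all genes, and limma voom called 0. Clec10a, 1 of these 4, had 15, 10 and 0 reads among the controls and 218, 24 and 18 among the knockouts. Such genes passed the filter on low values through the knockouts, which favoured the higher side in advance. The marker counts given here and below therefore lean to that side. The 3 myeloid lists had higher means in the knockouts. Border-associated macrophage markers were above 0 in 10 of 10 genes, and their summed CPM was 17.5, 41.5 and 87.2 for the controls and 280.4, 176 and 68.1 for the knockouts. Monocyte markers were above 0 in 6 of 6 genes tested of 8 listed. Their sums were 13.8, 37.8 and 47.2 CPM for controls and 149, 68.05 and 25.8 CPM for knockouts. On average Chil3 gave 21.0 of 32.9 CPM in controls and 55.8 of 80.8 CPM in knockouts. Neutrophil markers were above 0 in 9 of 10, with sums of 583, 843 and 1006 CPM and 2528, 1075 and 623 CPM. Of these Csf3r gave 458 to 537 CPM and 384 to 476 CPM. In all 3 lists knockout 1 was the highest library and knockout 3 lay within the range of the controls. Each gene of these 3 lists had reads in at least 1 library.

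Among markers of other brain cells, those of oligodendrocytes were above 0 in 4 of 4 genes tested of 6 listed, with sums of 61.3 to 101 CPM for controls and 95.3 to 112 CPM for knockouts. Their myelin genes Mobp (log2 fold change 1.17) and Mbp (0.48) had unadjusted edgeR p-values of 0.0466 and 0.0475. Astrocyte markers were above 0 in 4 of 6, with sums of 287 to 327 CPM and 273 to 365 CPM. Of these sums Slc1a3 gave 266 to 298 CPM and 250 to 325.5 CPM. Aldh1l1, an enzyme of folate metabolism, had a log2 fold change of 1.47 and an unadjusted edgeR p of 0.0108. The 2 below 0 were Aqp4 (-1.31) and Gja1 (-0.77). Endothelial markers were below 0 in 4 of 4 tested of 6, with sums of 38.2 to 96.7 CPM and 42.5 to 57.4 CPM. Of these Pecam1 gave 30.2 to 78.6 CPM and 32.2 to 49.4 CPM. Neuron markers were above 0 in 1 of 3 tested of 6, with sums of 1.87 to 6.29 CPM and 2.07 to 3.77 CPM.

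Lymphocyte markers were mostly too scarce to test. Of 10 T and NK cell markers only Cd4 was tested (unadjusted edgeR p 0.0359, with 0, 12 and 0 reads among the controls and 23, 13 and 14 among the knockouts), and the list's sums were at most 1.08 CPM in controls and 4.42 CPM in knockouts. B cell markers were below 0 in 2 of 2 tested of 6, Ighm and Cd79b, with sums of 623 to 776 CPM and 579 to 661 CPM, while the defining marker Ms4a1 had 0 reads in all 6 libraries. The part of any of these cell types in the levels of the 10 genes was not tested.

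Immediate early genes, which tissue dissociation can induce together with Nfkbia, were measured as well. Their sums overlapped: the controls read 1213, 1286 and 1021 CPM, the knockouts 1019, 1263 and 1051 CPM. Btg2, Zfp36 and Klf6 carried most of each sum, so the sums say little about the scarcer genes. Their control means were 448, 288 and 274 CPM, beside 1173 CPM for the list. Of 18 genes, 8 were above 0 with a median log2 fold change of -0.11, and edgeR called 0. The groups did not overlap for 4 of the 18 with the knockouts higher (Atf3, Egr3, Klf6 and Nr4a1, the last also in the monocyte list) and for 0 with the knockouts lower, beside the 6.59% of all genes on the higher side. Egr3 and Nr4a1 had 0 reads in control 3. At an unadjusted p under 0.05 edgeR had 1 higher and none lower. That gene, the stress transcription factor gene Atf3, had controls at 18.0, 13.2 and 11.0 CPM and knockouts at 18.8, 28.8 and 20.3 CPM. The AP-1 gene Jun stood at -0.57 (SE 0.27) on the log2 scale. Egr3 was near the limit of detection, with controls at 0.473, 0.215 and 0 CPM and knockouts at 1.18, 1.04 and 0.976 CPM.

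The rest of the pathway was read from lists of receptors, kinases, regulators and targets, of which edgeR called 0 genes, DESeq2 called 1 (Vcam1) and limma voom 0 (immediate early genes included). Of 21 receptor and adaptor genes, 10 were above 0 and the median was -0.03. At an unadjusted p under 0.05, 0 were higher and 1 was lower, Traf5, an adaptor of TNF-family receptors. For Traf5 the controls read 45.0, 38.3 and 34.6 CPM and the knockouts 30.4, 22.1 and 27.0 CPM, without overlap (log2 fold change -0.57, SE 0.22). It was the 1 gene without overlap on the lower side, and 3 had none on the higher side, Tlr2, Irak2 and Ripk1. Over all 15787 genes tested, 705 had no overlap on the lower side and 1040 (6.59%) on the higher side. Tlr2, a receptor for bacterial lipoproteins, had 0.29 (SE 0.15), and Birc2, a ubiquitin ligase of the TNF receptor complex, had -0.45 (SE 0.24).

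Among 14 genes of the IkB kinases, their upstream kinases and the linear ubiquitin ligase, 6 were above 0 and the median was -0.05. Map3k14 encodes NIK, the kinase that starts the non-canonical pathway. The controls read 55.1, 44.2 and 50.3 CPM, the knockouts 38.5, 27.8 and 32.8 CPM. All knockouts were below all controls, and the log2 fold change was -0.59 (SE 0.21), with an unadjusted edgeR p of 0.0119 and an adjusted p of 0.935. Ikbke, an IkB kinase related gene of antiviral signalling, was at the limit of detection, with 5, 0 and 0 reads among the controls and 64, 2 and 15 reads among the knockouts. Tab3, an adaptor of the kinase TAK1, had a log2 fold change of 0.88 (SE 0.55).

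Other inhibitors of the pathway showed no called change. Of 14 further negative regulators, such as the deubiquitinase gene Cyld, 8 were above 0, the median was 0.04, and 0 were higher or lower at an unadjusted p under 0.05. Tnip1 encodes a partner of A20. Its controls read 27.6, 32.1 and 22.0 CPM and its knockouts 34.5, 34.6 and 32.7 CPM, without overlap (log2 fold change 0.29, SE 0.22). Tax1bp1, another A20 partner, had 0.20 (SE 0.18) and Pdlim2 had 0.23 (SE 0.22). The remaining nuclear IkB genes were scarce, Bcl3 with a log2 fold change of 0.75 (SE 0.72) and Nfkbid with -0.06 (SE 0.42).

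Of 30 genes known as NF-kB targets, 25 were tested, 19 of them above 0 (76%), with a median log2 fold change of 0.23. EdgeR called 0, and at an unadjusted p under 0.05 it had 5 higher, beside a background of 2.34% on that side, and 1 lower. Of the 5, Cxcl2 and Traf1 had 12 reads or fewer in each control and passed the filter on low values through the knockouts, so the count is no measure of all 30 genes. For Vcam1, an adhesion molecule gene, the controls read 42.1, 73.0 and 76.2 CPM and the knockouts 146, 121 and 142 CPM, a log2 difference of 1.11 (SE 0.21, edgeR adjusted p = 0.129). For Tnfaip2, a gene induced by TNF, the controls read 9.33, 17.0 and 13.4 CPM and the knockouts 20.8, 27.8 and 29.8 CPM (0.98, SE 0.28, adjusted p = 0.571). In both genes all knockouts exceeded all controls. The chemokine gene Cxcl2 had 12, 6 and 0 reads among the controls and 94, 6 and 63 reads among the knockouts. The share above 0 is likewise that of the tested genes only. The macrophage, monocyte and neutrophil sums given above also had higher means in the knockouts, and their part in the targets was not tested.

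**Figure D5:**
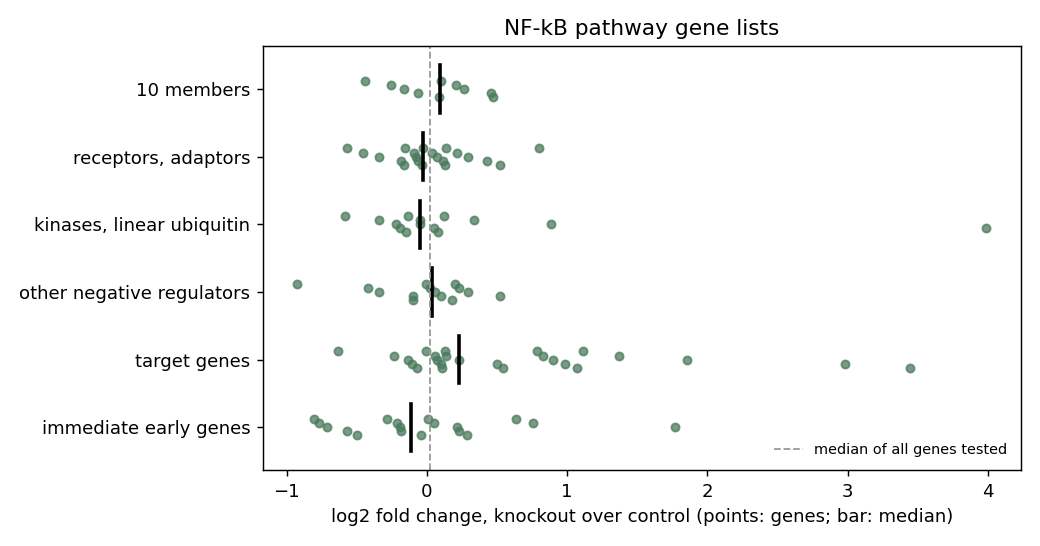
Log2 fold change of knockout over control for each tested gene of the lists (points), with the list median (bar) and the median of all genes tested (dashed line at 0.02). The medians of the plotted lists, which leave out the pair Bcl3 and Nfkbid, run from -0.11 for immediate early genes to 0.23 for target genes, and the far right points are low-count genes such as Ikbke and Cxcl2.

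Genes were then ranked by how closely they followed a mean profile of feedback inhibitors across libraries. The profile was the mean of the standardized log2 CPM of Nfkbia, Nfkbie, Nfkbiz and Tnfaip3, and Pearson's r was taken over the 6 libraries for 8935 protein-coding genes of at least 5 CPM. The profile was highest in knockout 3, at 0.92, lay between -0.14 and -0.05 in controls 2 and 3 and knockouts 1 and 2, and was -0.55 in control 1. Its genes did not peak together. Nfkbie and Tnfaip3 were highest in knockout 3, but Nfkbia was highest in knockout 2 and Nfkbiz in control 3. The most alike were Ppfibp2 (r = 0.988), Ska2 (0.963) and Sult1a1 (0.959). Ska2 was at 107 CPM in knockout 3 and between 3.31 and 9.87 CPM in the other 5 libraries. The likeness thus rests mainly on knockout 3 and is given without a test.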

How the data were processed

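The authors deposited raw counts of reads for each gene, as the values and the headers of the table show. Per the submitters' processing notes, the build was GRCm39 and the tools included STAR, featureCounts of Subread, and Salmon; whether counting used strand is not known here. Of 55774 rows, 287 with an identifier already present were dropped, keeping the first row of each, and 0 rows named no gene. Gene lengths and shared exons were taken from GENCODE M21 by identifier and promoters from RefSeq, both on GRCm38, so their coordinates are not those of the counting.

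EdgeR 4.0.16 in R 4.3.3 was run on the deposited counts of all 6 libraries with its default expression filter, TMM scaling and a robust quasi-likelihood F-test on the group alone. P-values were adjusted by Benjamini-Hochberg over all 15787 genes tested, with 0.05 as the threshold for a call. A standard error is the fold change divided by the square root of F. The step was tested on simulated data. Within each group every pair of libraries differed beyond sampling noise.

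The members and lists were chosen with earlier results of these data known. All 10 members are named, together with Atg7, the called genes and those with the 3 smallest p-values of each pathway list, and the 3 genes most like the inhibitor profile. The rule also named genes of the cell type marker lists, which are given here mainly as counts and sums to keep to the members. Other genes, such as Csf3r, Cyld and the lesser members of short lists, only describe their list. The result of 1 marker gene is not reported here. Alternatives were DESeq2 1.42.0, limma 3.58.1 voom, other scalings and filters, a replicate block, libraries left out and thinning to the shallowest library total.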

Additional observations from a re-analysis of the deposited data

How the results depend on the processing

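No alternative called any of the 10 genes. The adjusted p of each stayed at 0.435 or above over the 16 alternatives (15 for Relb and Nfkbiz, which the filter removed after thinning to the shallowest total). Nfkbia kept a log2 fold change above 0 in all 16, from 0.25 to 0.64, with an unadjusted p under 0.05 in 12. Nfkbib ranged from 0.20 to 0.67 and Nfkb1 from -0.39 to -0.17, also without a change of direction. The sign changed for genes near 0 when 1 library was left out. With each library left out in turn Rela ran from -0.20 to 0.060 (above 0 without control 2), Rel from -0.060 to 0.19 (below 0 without control 3 or knockout 1) and Tnfaip3 from -0.091 to 0.24 (below 0 without knockout 3); the cause was not tested. The count of genes called over the whole table was 7. It was 102 with no filter, 83 with the DESeq2 test, 15 with limma voom, 2 in edgeR without the robust option and 39 with both shallow libraries left out, and 2 to 50 when 1 library was left out, 50 being the count without control 3. With the replicate block 25 genes and 0 members were called. The labels do not say that replicate numbers pair the mice, and the correlations below cannot decide it because library depth differed. The correlations of same-numbered deviations from the group means were 0.585, -0.446 and -0.015 for numbers 1 to 3, and the best match of knockout 2 was control 3 (0.576), both of them shallow. With both shallow libraries left out, chosen for the ratios after seeing the data, 30 member pairs (66.7%) did not overlap, against 12 (26.7%) with all libraries. The share over all pairs rose as well, from 12.6% to 38.8%, since fewer libraries in a group overlap less often. Levels in control 3 under 2.39 CPM rest on 3 reads or fewer.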
